A study of Caenorhabditis elegans with 9 samples.

Results

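The glutathione S-transferase genes of *C. elegans* named *gst*, *gstk* or *gsto* with a number were examined in the RNA of L4 larvae. Members were chosen by symbol alone, and 39 of the 14218 genes in the authors' table of centred and scaled expression carry such a symbol, namely 34 *gst*, 2 *gstk* and 3 *gsto* genes. The WBcel235 annotation of Ensembl release 115 holds 49 such genes. The other 10, among them *gst-30* and *gst-44*, reach at most 0.271 to 0.907 RPKM in their highest library and were not analysed here. RNA of 3 genotypes was sequenced, with 3 libraries each. WT is strain N2. The loss-of-function group carries the deletion allele *atf-4(tm4397)*. ATF-4OE carries *ldIs119*, an array integrated by UV irradiation that holds the *atf-4* genomic sequence fused to GFP under its own 1.8 kb upstream region with the *unc-54* 3′ end, and the marker *rol-6(su1006)*. Each altered genotype is 1 strain, so effects of the array, of its marker and of its insertion cannot be told apart from those of ATF-4. Each library was poly(A) RNA of about 20000 whole animals grown at 20 °C without added stress, and the strains of a replicate shared a growth period. In whole animals, fewer cells of a type and less RNA per cell cannot be told apart.

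Glutathione S-transferases join the tripeptide glutathione to electrophilic compounds such as xenobiotics and products of lipid peroxidation, which are then exported or broken down further. The cytosolic enzymes fall into classes by sequence. *C. elegans* has pi-class enzymes (*gst-1* and *gst-10*), zeta-class enzymes (*gst-42* and *gst-43*), omega-class enzymes (*gsto*), which carry a cysteine where other classes use tyrosine or serine, and a large nematode expansion related to the sigma class that accounts for most other *gst* genes. The *gstk* genes encode kappa-class enzymes, a separate fold known from mitochondria and peroxisomes. Several *gst* genes are intestinal and are induced by the transcription factor SKN-1, the worm counterpart of NRF proteins. ATF-4 is the bZIP transcription factor of the integrated stress response, which in mammals raises genes of amino acid uptake and cysteine supply, and cysteine is a building block of glutathione.

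Levels are given as parts of 1000000 (ppm), proportional to RPKM in any 1 library, so that they are per length of transcript and levels of different genes can be set side by side. The level of *atf-4* was 200, 168 and 215 ppm in WT, 3.81, 3.69 and 9.31 ppm in *atf-4(tm4397)* and 5289, 4184 and 6845 ppm in ATF-4OE. The marker *rol-6* was at 605, 962 and 572 ppm in WT, 750, 655 and 1379 ppm in the mutant and 4448, 3019 and 3943 ppm in ATF-4OE. Both genes followed the labels used here. A second deposited table, of RPKM values, gives 6 of the 9 libraries another genotype, and under its names 0 of 26 members tested passed in either comparison with WT by limma, with 3 at an unadjusted p under 0.05 for ATF-4OE and 1 for the mutant. Depth, estimated from the steps between RPKM values, was about 23.7 to 34.9 M reads per library. Among 28 tested members, *atf-4(tm4397)* replicate 3 was the lowest of its group for 20 and replicate 1 the highest for 20. ATF-4OE replicate 1 was the lowest of its group for 15 and WT replicate 2 for 14.

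The family was led by a few genes. Mean levels over the 9 libraries ran from 211 ppm (*gst-27*) to 1.37 ppm (*gst-31*), with 6 members at 100 ppm or more, 15 between 10 and 100 ppm and 18 below 10 ppm. The 5 most abundant, *gst-27* (211 ppm), *gst-1* (206 ppm), *gst-10* (184 ppm), *gst-26* (148 ppm) and *gst-36* (121 ppm), made up 54.6% of the family's summed level. *gst-13* (120 ppm) and *gst-7* (87.8 ppm) followed. Over the 9 libraries the ranges of 37 of the 38 pairs of neighbours in this order overlapped, as in *gst-27* (124 to 309 ppm) and *gst-1* (152 to 255 ppm), and only *gst-43* (18.7 to 27.1 ppm) stood clear of the next gene, *gst-35* (10.3 to 17.7 ppm). Of the conserved classes, pi-class *gst-1* and *gst-10* were the most abundant, zeta-class *gst-42* (66.2 ppm) and kappa-class *gstk-1* (45.7 ppm) were intermediate, and omega-class *gsto-1* (27 ppm) stood above *gsto-3* (9.73 ppm) and *gsto-2* (1.8 ppm). *gstk-2* had a mean of 4.22 ppm.

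**Figure D1:**
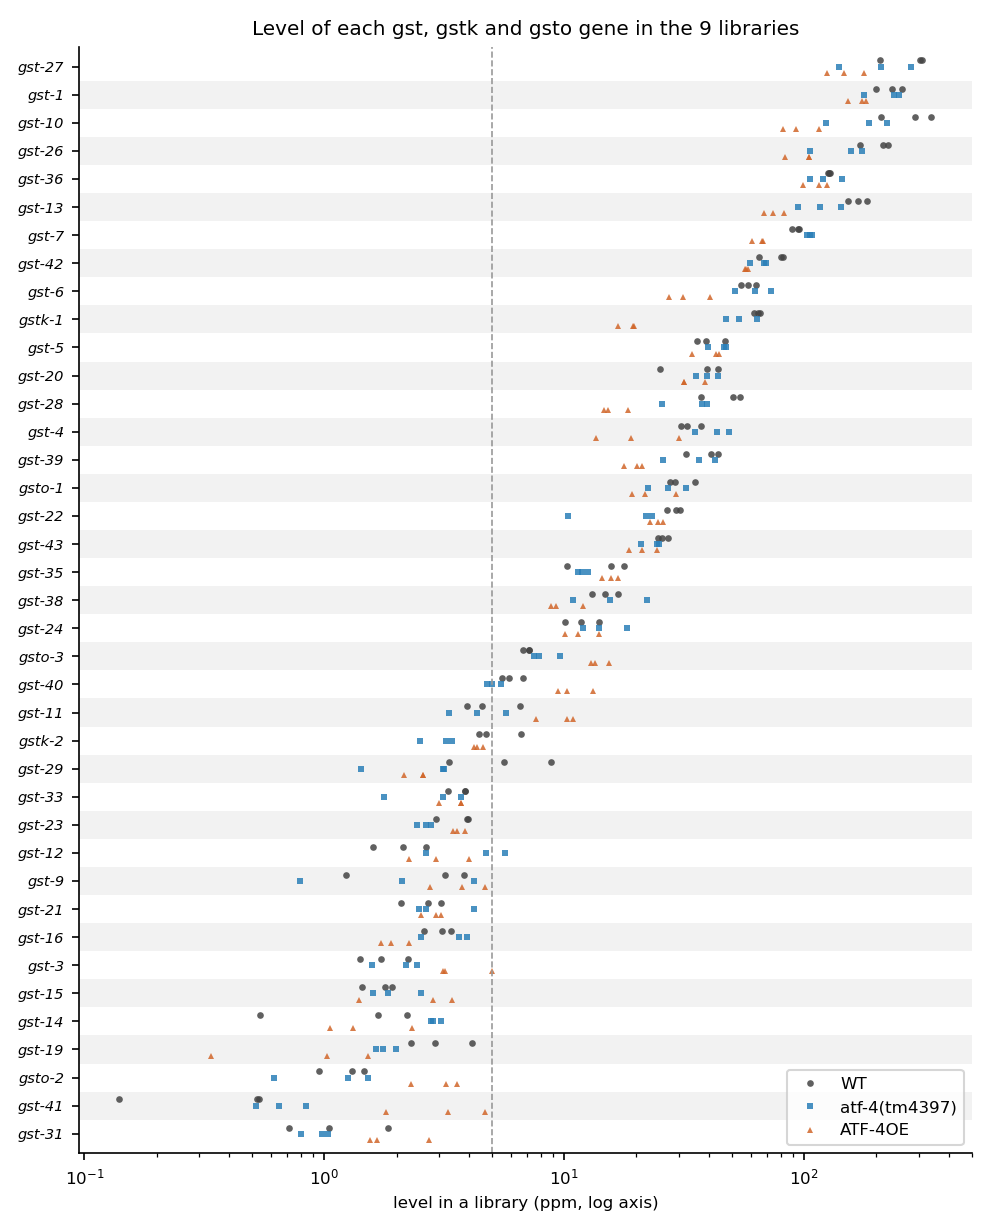
Level of each of the 39 members in each library (ppm, log axis), ordered by mean level; circles are WT, squares *atf-4(tm4397)*, triangles ATF-4OE, and the dashed line marks the 5 ppm that at least 1 library had to reach for a gene to be tested. The ATF-4OE triangles lie left of WT for most abundant members and right of it for *gsto-3*, *gst-40* and *gst-11*.

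Together the 39 members held 2073, 1711 and 2064 ppm in the WT libraries, 1879, 1705 and 1338 ppm in *atf-4(tm4397)* and 1115, 1267 and 1185 ppm in ATF-4OE. All 3 ATF-4OE sums lay below every other library, while the mutant sums overlapped those of WT. The means were 1949 ± 206 (SD, n = 3), 1641 ± 276 and 1189 ± 75.8 ppm. The summed level of intestinal markers was also lower in ATF-4OE than in WT. The 10 intestinal markers (*ges-1*, *elt-2*, *elt-7*, *vha-6*, *pept-1*, *act-5*, *ifb-2*, *ifc-2*, *ifp-1* and *erm-1*) summed to 4230 to 4764 ppm in WT, 2873 to 4236 ppm in the mutant and 2352 to 3199 ppm in ATF-4OE. *act-5* made up most of each marker sum (2548 to 3093 ppm in WT, 1625 to 2819 ppm in the mutant and 1315 to 1813 ppm in ATF-4OE). ATF-4OE and WT libraries overlapped for *ges-1*, *ifb-2*, *ifc-2* and *ifp-1*, and ATF-4OE lay below WT for the other markers. The mutant library with the lowest sum of members, replicate 3, also had the lowest marker sum of its group. Within ATF-4OE, replicate 2 had the highest sum of members and replicate 3 the highest marker sum. The part of intestinal content in the levels of the members was not tested.

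**Figure D2:**
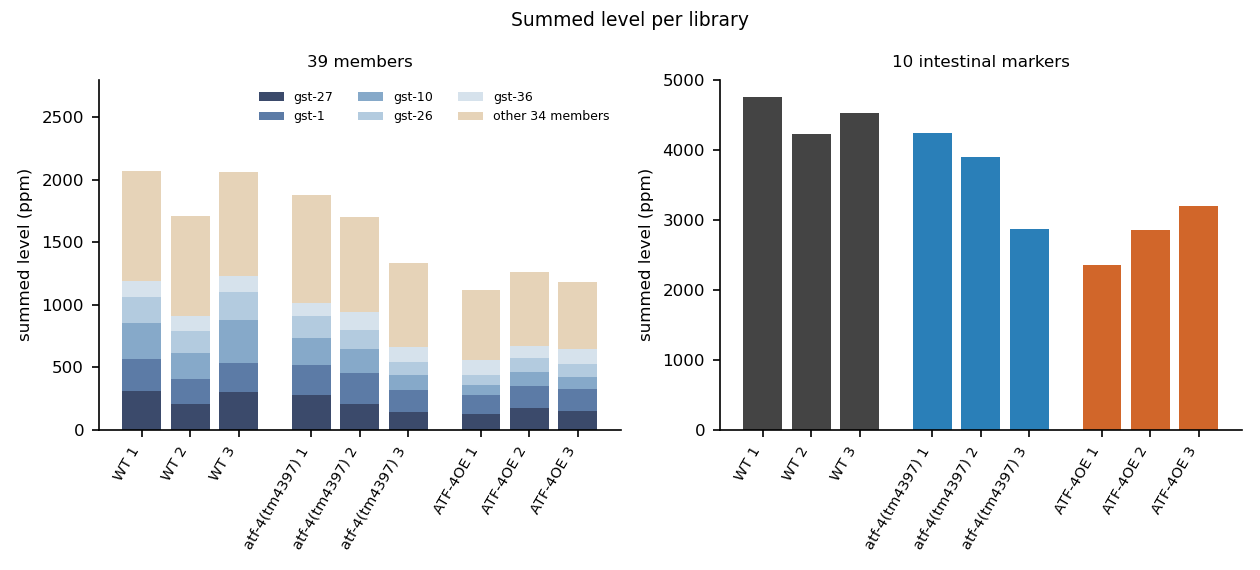
Summed level per library (ppm) of the 39 members, with the 5 most abundant shown separately (left), and of the 10 intestinal markers (right). Both sums are lowest in the ATF-4OE libraries, apart from *atf-4(tm4397)* replicate 3, whose markers (2873 ppm) lie within the ATF-4OE range.

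The first comparison asked how the family differs between ATF-4OE and WT. A gene was tested where at least 1 library reached 5 ppm, on log2(level + 1) with limma, and passed at a Benjamini-Hochberg adjusted p under 0.1 over 11287 genes. 28 members were tested. In ATF-4OE, 13 were lower, against 14.4% of all genes, 4 were higher, against 22.1% of all genes, and 11 did not pass. The median log2 fold change was -0.38 over the tested members and 0.01 over all genes tested. Regardless of the filter, all 3 ATF-4OE libraries lay below all 3 WT libraries for 19 of the 39 members (20.2% of all genes) and above them for 6 (24.8% of all genes). A log2 fold change beyond 1 was reached by 5 of the lower members and 0 of the higher ones. The 1 added to each level shrinks the fold most at low levels. The 4 higher members had ATF-4OE means of only 3.78 to 13.9 ppm, so these 2 counts do not compare sizes on equal terms. Of the tested members, *gst-3* reached the 5 ppm only in 1 ATF-4OE library, *gst-12* only in 1 mutant library, *gst-29* only in 2 WT libraries and *gstk-2* only in 1 WT library. The 4 higher members thus include *gst-3* and the 13 lower ones *gst-29*, each tested only through the group where it was high. With a filter on a mean of at least 5 ppm, 3 members were higher and 12 lower.

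**Figure D3:**
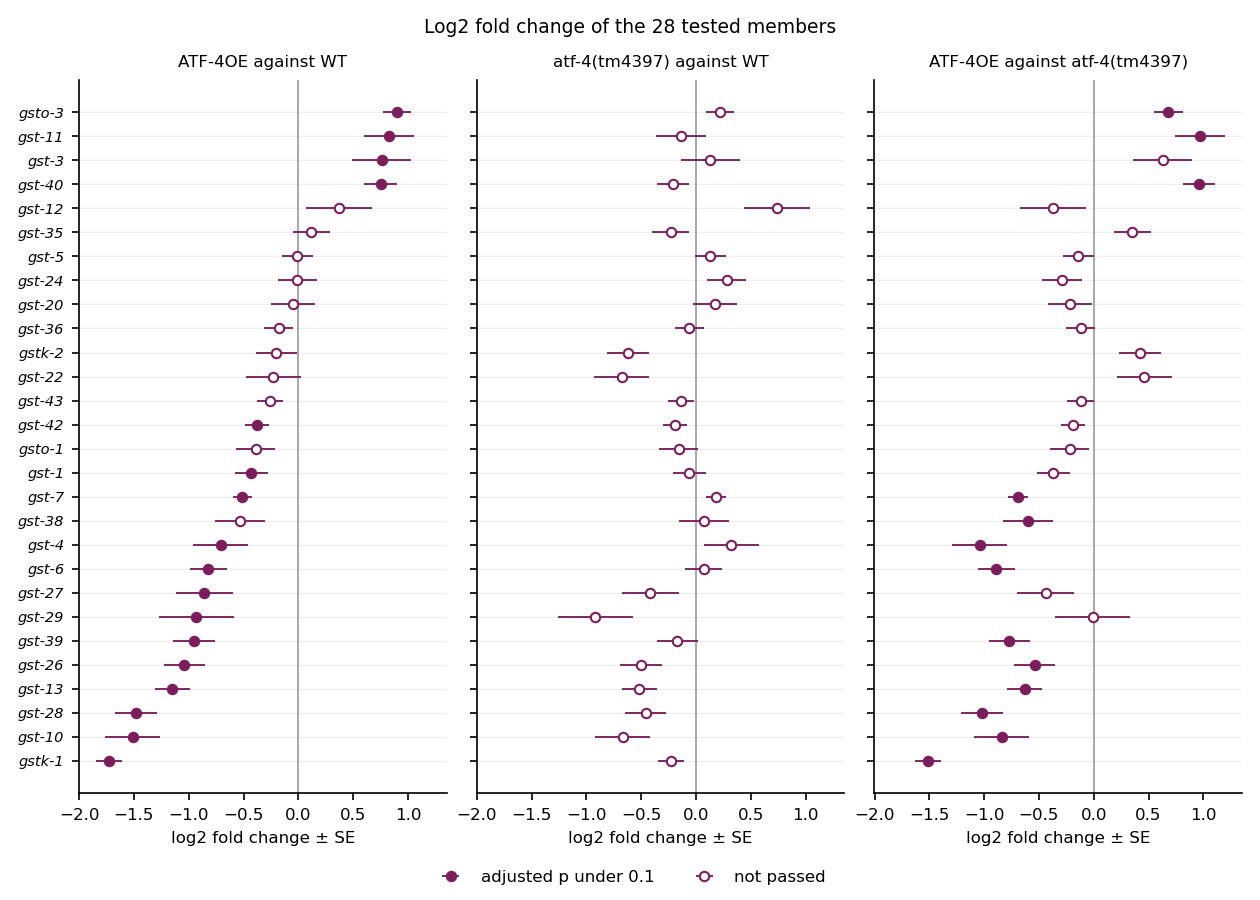
Log2 fold change with its standard error (limma, log2(level + 1)) of the 28 tested members in each of the 3 comparisons, ordered by ATF-4OE against WT; filled points passed at an adjusted p under 0.1. The filled points reach from -1.73 (*gstk-1*) to 0.90 (*gsto-3*) in ATF-4OE against WT, and no point is filled for *atf-4(tm4397)* against WT.

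The largest difference among the tested members was that of *gstk-1*, a kappa-class enzyme gene on chromosome II (9656705 to 9657719, plus strand). Its level was 65.4, 64.2 and 61.7 ppm in WT, 63.3, 53.6 and 47.4 ppm in *atf-4(tm4397)* and 16.7, 19.4 and 19.5 ppm in ATF-4OE. The ATF-4OE libraries lay far below both other groups, which overlapped. The log2 fold change against WT was -1.73 ± 0.12 (SE), with an adjusted p of 8.26e-05 by limma. The other kappa-class gene, *gstk-2*, was at 4.42, 6.58 and 4.72 ppm in WT, 3.41, 3.2 and 2.5 ppm in the mutant and 4.20, 4.34 and 4.58 ppm in ATF-4OE. Its ATF-4OE and WT libraries overlapped and it did not pass (adjusted p = 0.472 by limma). Exons of *gstk-2* overlap those of *elo-3* on the other strand, and whether counting used strand is not given in the sources used here.

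Both pi-class genes were lower. *gst-10* lies on chromosome V (2561690 to 2564645, plus strand) and encodes an enzyme known in *C. elegans* to conjugate 4-hydroxynonenal, a product of lipid peroxidation. It was at 289, 209 and 339 ppm in WT, 221, 186 and 123 ppm in *atf-4(tm4397)* and 81.6, 115 and 92.5 ppm in ATF-4OE. All ATF-4OE libraries lay below every mutant library and every WT library. Its log2 fold change against WT was -1.51 ± 0.25 (SE, adjusted p = 0.00303 by limma), so that the third most abundant member of the family was 2.85-fold lower. *gst-1* was at 255, 200 and 233 ppm in WT, 237, 248 and 177 ppm in the mutant and 152, 174 and 181 ppm in ATF-4OE. Its libraries in ATF-4OE and WT did not overlap. The log2 fold change of *gst-1* was -0.43 ± 0.15 (SE, adjusted p = 0.0598 by limma), and it did not pass with the replicate block (adjusted p = 0.109) or without WT replicate 1 (0.179), WT replicate 3 (0.152) or ATF-4OE replicate 1 (0.197).

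Members of the expanded group that lie side by side on chromosome II made up much of the rest. There, 9 *gst* genes lie within 21.6 kb on the minus strand (15163817 to 15185389), of which 7 are members and 6 were tested. In ATF-4OE, 5 of these 6 were lower, against 14.4% of all genes. The 5 include *gst-29*, which was tested only through WT libraries, where it was high. *gst-28* was at 53.8, 37.3 and 50.7 ppm in WT, 39.4, 37.5 and 25.6 ppm in the mutant and 14.7, 18.4 and 15.2 ppm in ATF-4OE, where every library lay below the others (log2 fold change -1.48 ± 0.19 SE, adjusted p = 0.00136 by limma). Its neighbour *gst-26* was at 213, 171 and 223 ppm in WT, 174, 156 and 106 ppm in the mutant and 83.1, 105 and 105 ppm in ATF-4OE. ATF-4OE was again lowest throughout, by a narrow margin over mutant replicate 3 (log2 fold change against WT -1.04 ± 0.19 SE, adjusted p = 0.00536 by limma).

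The most abundant member, *gst-27*, lies between them. It was at 309, 207 and 305 ppm in WT, 278, 209 and 139 ppm in the mutant and 124, 177 and 147 ppm in ATF-4OE, so that ATF-4OE lay below WT and overlapped the mutant. The log2 fold change against WT was -0.86 ± 0.26 (SE, adjusted p = 0.0359 by limma), and the call was lost without WT replicate 1 (adjusted p = 0.109), WT replicate 3 (0.116) or ATF-4OE replicate 1 (0.134). *gst-39* was at 40.8, 32.2 and 43.8 ppm in WT, 42.4, 36.3 and 25.8 ppm in the mutant and 17.8, 20.1 and 21 ppm in ATF-4OE, below both other groups (log2 fold change against WT -0.95 ± 0.19 SE, adjusted p = 0.00656 by limma). The low-level *gst-29* was at 5.60, 3.30 and 8.79 ppm in WT, 3.15, 3.11 and 1.42 ppm in the mutant and 2.15, 2.57 and 2.57 ppm in ATF-4OE. Its log2 fold change of -0.93 ± 0.34 (SE, adjusted p = 0.0683 by limma) rested on few libraries: the call was lost with the replicate block (adjusted p = 0.128) and, at adjusted p of 0.113 to 0.243, without WT replicate 1, WT replicate 3 or any ATF-4OE replicate. At the far end of the run, *gst-35* was at 10.3, 15.6 and 17.7 ppm in WT and 16.8, 14.4 and 15.6 ppm in ATF-4OE, which overlapped, and it did not pass (adjusted p = 0.632 by limma).

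**Figure D4:**
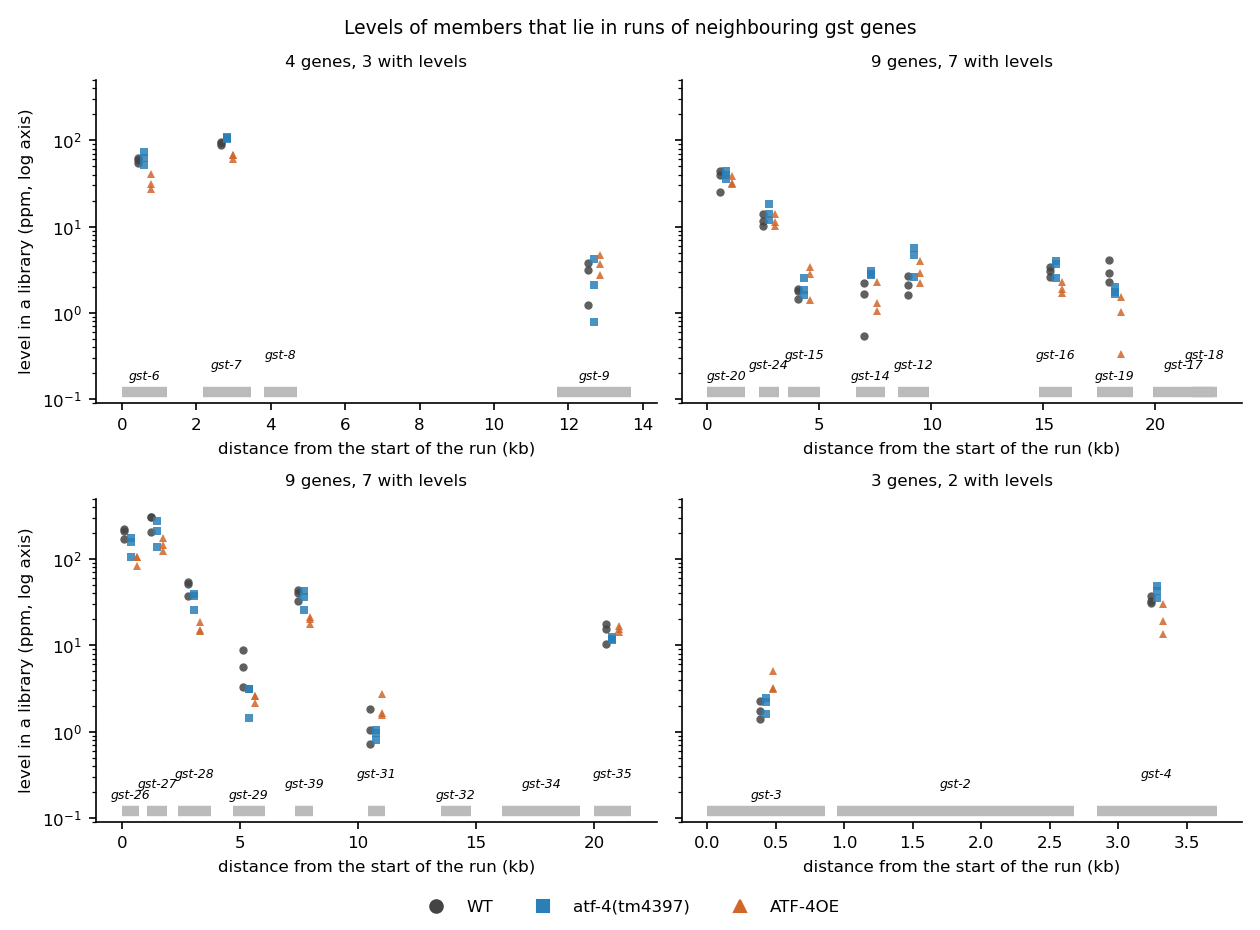
Levels in each library (ppm, log axis) of members in the 4 runs of *gst* genes that lie less than 10 kb apart, against distance from the start of the run (kb); grey bars are the gene bodies, and genes with no points have no level. ATF-4OE lies below WT for *gst-26*, *gst-27*, *gst-28*, *gst-29* and *gst-39* of the lower left run and not for *gst-35* at its end.

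The other runs gave different counts. Of 4 genes within 13.7 kb elsewhere on chromosome II, *gst-6* and *gst-7* were tested and both were lower, against 14.4% of all genes. *gst-7* was at 94.0, 95.4 and 89.3 ppm in WT, 108, 106 and 103 ppm in *atf-4(tm4397)* and 66.9, 67.5 and 60.8 ppm in ATF-4OE. The 3 genotypes did not overlap, with the mutant highest and ATF-4OE lowest, and *gst-7* passed in ATF-4OE (log2 fold change -0.51 ± 0.09 SE, adjusted p = 0.00363 by limma). *gst-6* was at 58.4, 62.9 and 54.4 ppm in WT, 72.4, 62.3 and 51.4 ppm in the mutant and 27.4, 40.6 and 31.3 ppm in ATF-4OE. Here WT and mutant overlapped and ATF-4OE lay below both (log2 fold change against WT -0.82 ± 0.17 SE, adjusted p = 0.00764 by limma). Of another run of 9 genes on this chromosome (13608154 to 13630887), 3 members were tested. Between ATF-4OE and WT 0 of them passed by limma, also at an unadjusted p under 0.05. In the mutant against WT only *gst-12* was under it (unadjusted p = 0.034 by limma). *gst-20* spanned 25.1 to 43.9 ppm over the 9 libraries, *gst-24* 10.1 to 18.2 ppm and *gst-12* 1.60 to 5.65 ppm. Reads that fit near-identical copies may have been split or dropped in counting, and the identity of neighbouring genes was not analysed here.

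A run on chromosome IV, *gst-3*, *gst-2* and *gst-4* within 3.72 kb, held a member in each direction. The higher one, *gst-3*, was tested only through 1 ATF-4OE library. *gst-4*, whose promoter is the usual reporter of SKN-1 activity under oxidative stress, was at 37.1, 30.7 and 32.4 ppm in WT, 48.8, 35.0 and 43.1 ppm in the mutant and 19.0, 30.2 and 13.6 ppm in ATF-4OE. ATF-4OE replicate 2 came close to the lowest WT library, and the other ATF-4OE libraries were well below. The log2 fold change against WT was -0.71 ± 0.25 (SE, adjusted p = 0.0594 by limma), and the call was lost without WT replicate 1 (adjusted p = 0.157), WT replicate 3 (0.127), ATF-4OE replicate 1 (0.161) or ATF-4OE replicate 3 (0.175). Exons of *gst-4* overlap those of *dhs-12* on the same strand. The levels of *gst-3* were 1.41, 1.73 and 2.24 ppm in WT, 2.43, 2.18 and 1.58 ppm in the mutant and 5.02, 3.13 and 3.18 ppm in ATF-4OE, which lay above the rest. Its log2 fold change of 0.76 ± 0.27 (SE, adjusted p = 0.0678 by limma) did not pass with the replicate block (adjusted p = 0.134) or, at 0.111 to 0.248, without WT replicate 1 or 2 or ATF-4OE replicate 1 or 3.

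Outside the runs, 15 members were tested, of which 5 were lower, against 14.4% of all genes, and 3 higher, against 22.1%. The count of higher ones is near the share of all genes. *gst-13*, on chromosome II (9231457 to 9232344, plus strand), was at 183, 152 and 167 ppm in WT, 143, 116 and 93.8 ppm in *atf-4(tm4397)* and 67.9, 82.7 and 73.9 ppm in ATF-4OE. The 3 genotypes did not overlap, in the order WT, mutant, ATF-4OE. It passed in ATF-4OE against WT with a log2 fold change of -1.15 ± 0.16 (SE, adjusted p = 0.00164 by limma). *gst-42*, which encodes the maleylacetoacetate isomerase of tyrosine breakdown, was at 80.0, 64.8 and 81.5 ppm in WT, 68.3, 69.5 and 59.5 ppm in the mutant and 56.8, 57.4 and 58.4 ppm in ATF-4OE. ATF-4OE was lowest throughout (log2 fold change against WT -0.38 ± 0.11 SE, adjusted p = 0.0366 by limma), and the call was lost without WT replicate 1 (0.116), WT replicate 3 (0.137) or ATF-4OE replicate 1 (0.111). The other zeta-class gene, *gst-43*, was at 25.5, 24.5 and 27.1 ppm in WT and 24.4, 21 and 18.7 ppm in ATF-4OE, and did not pass (adjusted p = 0.142 by limma).

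**Figure D5:**
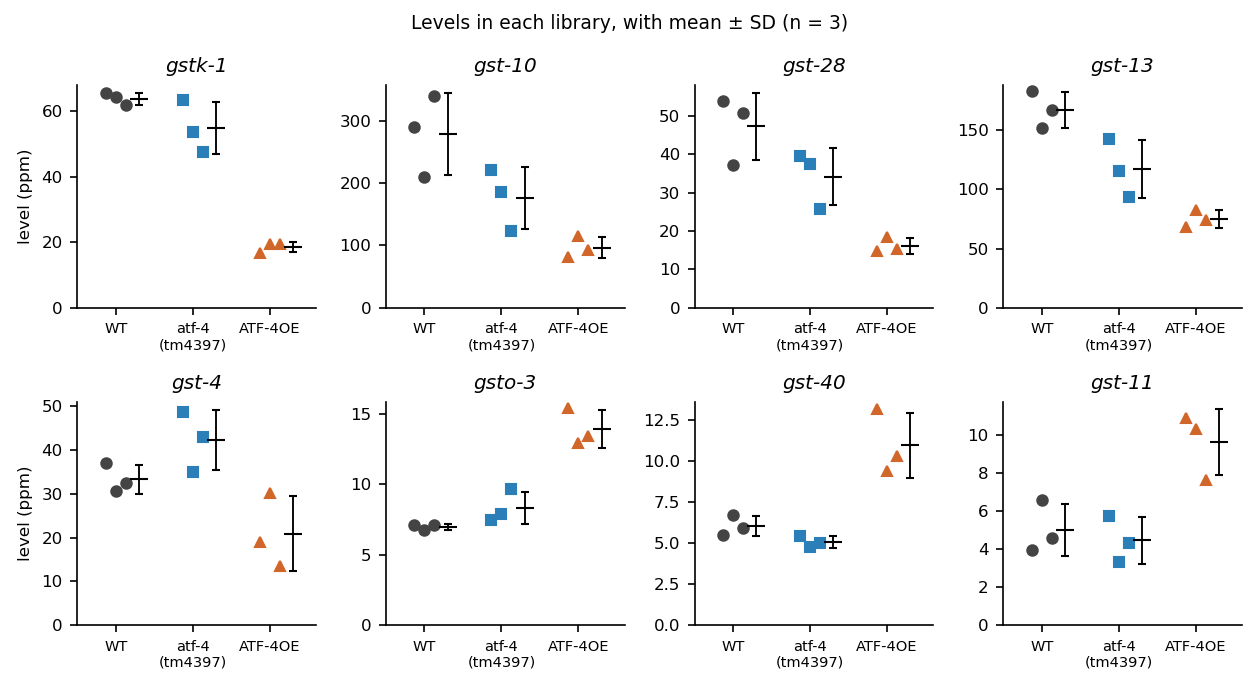
Levels in each library (ppm) of 8 members, with the mean and SD of 3 libraries beside each group. *gstk-1*, *gst-10*, *gst-28*, *gst-13* and *gst-4* are lowest in ATF-4OE, and *gsto-3*, *gst-40* and *gst-11* are highest there.

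Among the omega-class genes, *gsto-3* was higher. It lies on chromosome III (378137 to 381298, minus strand) and was at 7.10, 6.72 and 7.11 ppm in WT, 7.46, 7.84 and 9.62 ppm in the mutant and 15.4, 12.9 and 13.4 ppm in ATF-4OE. The ATF-4OE libraries stood apart from both other groups (log2 fold change against WT 0.90 ± 0.13 SE, adjusted p = 0.00174 by limma). *gsto-1*, known as an intestinal enzyme that protects *C. elegans* from oxidative stress, was at 28.9, 27.7 and 34.9 ppm in WT and 19.2, 29.1 and 21.7 ppm in ATF-4OE, which overlapped (adjusted p = 0.145 by limma). *gsto-2* was at 1.30, 1.46 and 0.949 ppm in WT, 1.52, 1.26 and 0.614 ppm in the mutant and 2.29, 3.56 and 3.21 ppm in ATF-4OE. Its ATF-4OE libraries lay above all others, but it did not reach the filter. With no filter, *gsto-2* passed (log2 fold change 0.84, adjusted p = 0.0353 by limma), on 10 to 59 reads per library.

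The remaining higher members had low levels. *gst-40*, on chromosome IV (760502 to 762419, plus strand), was at 5.52, 6.72 and 5.89 ppm in WT, 5.46, 4.78 and 4.99 ppm in *atf-4(tm4397)* and 13.2, 9.38 and 10.3 ppm in ATF-4OE. ATF-4OE lay above and the mutant below WT without overlap, and ATF-4OE passed against WT (log2 fold change 0.75 ± 0.15 SE, adjusted p = 0.00705 by limma). Its exons overlap those of the cuticle collagen gene *col-103* on the other strand, which was at 611, 250 and 255 ppm in WT and 1395, 1310 and 1699 ppm in ATF-4OE. The part of reads from *col-103* in the level of *gst-40* was not tested. *gst-11*, on chromosome X (3632367 to 3633754, minus strand), was at 3.94, 6.56 and 4.56 ppm in WT, 5.74, 3.31 and 4.32 ppm in the mutant and 10.9, 10.3 and 7.65 ppm in ATF-4OE, above both other groups. Its log2 fold change against WT was 0.83 ± 0.23 (SE, adjusted p = 0.0256 by limma), with an adjusted p of 0.104 without ATF-4OE replicate 1.

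Several abundant or conserved members did not pass between ATF-4OE and WT. *gst-36*, the fifth most abundant, was at 126, 127 and 128 ppm in WT, 106, 144 and 120 ppm in the mutant and 115, 99.0 and 124 ppm in ATF-4OE, just below WT (adjusted p = 0.343 by limma). Its exons overlap those of *scav-5* on the other strand, which was lower in ATF-4OE (log2 fold change -0.64, adjusted p = 0.0240 by limma). *gst-5* was at 46.7, 39.1 and 35.8 ppm in WT, 46.3, 39.7 and 47.3 ppm in the mutant and 42.8, 44 and 34.1 ppm in ATF-4OE, with full overlap (log2 fold change -0.01 ± 0.14 SE). *gst-22* and *gst-38* had ATF-4OE libraries below WT without passing, at 22.7 to 25.9 against 26.7 to 30.4 ppm and 8.78 to 12 against 13.1 to 16.8 ppm.

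The 11 members that no library raised to 5 ppm were outside the tests. Fitted with no filter, *gst-41* was at 0.532, 0.523 and 0.140 ppm in WT, 0.838, 0.645 and 0.520 ppm in *atf-4(tm4397)* and 4.66, 1.81 and 3.29 ppm in ATF-4OE, on 2 to 95 reads per library. Every ATF-4OE library lay above all others, and the log2 fold change against WT was 1.56 (adjusted p = 0.00723 by limma). *gst-19* was at 2.3, 2.9 and 4.12 ppm in WT, 1.98, 1.76 and 1.64 ppm in the mutant and 0.337, 1.03 and 1.52 ppm in ATF-4OE. The 3 genotypes did not overlap, and ATF-4OE was lower than WT by limma (log2 fold change -1.09, adjusted p = 0.0206). These genes were picked after their values were seen. In that fit 6 of the 39 members were higher in ATF-4OE than in WT, against 20.2% of all genes, and 14 lower, against 11.7%. The others under the filter were *gst-9*, *gst-14*, *gst-15*, *gst-16*, *gst-21*, *gst-23*, *gst-31*, *gst-33* and *gsto-2*.

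Of the 13 lower members, *gstk-1*, *gst-10*, *gst-28*, *gst-13*, *gst-26*, *gst-39*, *gst-6* and *gst-7* passed in every alternative fit and without any single library, apart from the names of the RPKM table and, for *gst-6* and *gst-7*, a scaling to intestinal markers. Without WT replicate 1 or WT replicate 3 the count of lower members fell from 13 to 8, and without ATF-4OE replicate 1 the count of higher members fell from 4 to 2. On the centred and scaled values as deposited, whose scale is linear, 0 of the 4 higher members passed by limma (adjusted p = 0.103 for *gsto-3*, 0.176 for *gst-40*, 0.263 for *gst-11* and 0.414 for *gst-3*), and *gst-1*, *gst-4* and *gst-29* lost the lower call. These values are centred on each library's own mean, so differences of low-level genes there include those between the centres. A call that such a gene lost there does not rest on its level alone. In ATF-4OE against WT, 6 of the 10 intestinal markers were lower and 0 higher (median log2 fold change -0.58). Markers of other tissues were higher, with 13 of 15 for neurons, 7 of 9 for body wall muscle and 5 of 6 for the epidermis, and 0 lower in each. Their summed levels for neurons were 760.7 to 889.2 ppm in WT and 1251 to 1493 ppm in ATF-4OE. For muscle they were 4713 to 5492 and 6620 to 8023 ppm, and for the epidermis 330.9 to 567.1 and 783.3 to 924.9 ppm. The muscle markers include *unc-54*, whose 3′ end is also part of the array. The part of array reads in the level of *unc-54* was not tested. Of 5 sperm markers tested, 0 passed by limma, also at an unadjusted p under 0.05, with sums of 13.15 to 38.96 ppm in WT, 11.66 to 65.68 ppm in the mutant and 14.53 to 17.58 ppm in ATF-4OE. When each library was divided by the geometric mean of its intestinal markers, 6 members were called lower (*gst-10*, *gst-13*, *gst-26*, *gst-28*, *gst-39* and *gstk-1*), against 3.22% of all genes, and 10 were higher, against 64.2% of all genes. This scaling was chosen after the data were seen. It moves the log2 fold changes up by about the same amount, as for *gstk-1* from -1.73 to -1.17, so that the largest falls keep the call. Whether these members fell beyond intestinal content was not tested. On that scale the log2 fold changes of *gst-1* (0.14), *gst-7* (0.06) and *gst-42* (0.19) changed sign and did not pass.

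The second comparison asked whether loss of *atf-4* changed the family. By limma, 0 of the 28 members passed between *atf-4(tm4397)* and WT, against 0.0532% of all genes, with a smallest adjusted p of 0.461. At an unadjusted p under 0.05 there were 8 members, against 10.4% of all genes: *gst-10*, *gst-13*, *gst-22*, *gst-26*, *gst-28*, *gst-29* and *gstk-2* with lower means in the mutant and *gst-12* with a higher mean. Their log2 fold changes ran from -0.92 (*gst-29*) to 0.74 (*gst-12*). Of these members, *gst-29* and *gstk-2* reached the 5 ppm only in WT and *gst-12* only in 1 mutant library. Each of them was thus tested only through the group where it was high, and the count of 8 includes them. The median log2 fold change was -0.15 over the members and 0.02 over all genes. Mutant libraries lay below all WT libraries for 7 of 39 members (7.27% of all genes) and above them for 3 (5.8% of all genes). *gst-22*, at 29.2, 26.7 and 30.4 ppm in WT, was at 23.1, 22 and 10.4 ppm in the mutant, where replicate 3 was far below the others. 0 members passed under each alternative fit. The count is that of these 6 libraries and does not show that levels were alike.

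The third comparison set ATF-4OE against *atf-4(tm4397)*, and shares the ATF-4OE libraries with the first. Of the 28 members, 10 were lower in ATF-4OE, against 13.8% of all genes, and 3 were higher, against 19.8% of all genes. The median log2 fold change was -0.25 over the members and -0.03 over all genes. *gstk-1* had again the largest difference (log2 fold change -1.51 ± 0.12 SE, adjusted p = 0.000217 by limma), and *gst-28* (-1.02 ± 0.19) and *gst-4* (-1.04 ± 0.25) also passed beyond a log2 fold change of 1. *gst-6* (-0.89), *gst-10* (-0.84), *gst-39* (-0.77), *gst-7* (-0.69), *gst-13* (-0.63), *gst-38* (-0.60) and *gst-26* (-0.54) were the other lower members. The higher ones were *gst-11* (0.97 ± 0.23), *gst-40* (0.96 ± 0.15) and *gsto-3* (0.68 ± 0.13).

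For *gst-4* the mutant levels of 35.0 to 48.8 ppm lay above all ATF-4OE levels of 13.6 to 30.2 ppm, and the difference passed without any single library. *gst-38* was at 22.2, 15.5 and 10.9 ppm in the mutant and 8.78, 12 and 9.24 ppm in ATF-4OE, which overlapped. Its adjusted p of 0.0864 by limma rose to between 0.105 and 0.225 without any WT replicate, mutant replicate 1 or 2, or ATF-4OE replicate 1 or 3. The call of *gst-26* was lost with the replicate block (adjusted p = 0.130) and, at 0.102 to 0.216, without mutant replicate 1 or 2 or any ATF-4OE replicate. That of *gst-10* was lost without mutant replicate 2 (0.107) or ATF-4OE replicate 1 (0.126).

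Other genes of glutathione metabolism were called in both directions. Of 16 genes that make, reduce or use glutathione, 13 were tested, and in ATF-4OE against WT 3 were higher and 3 lower, with a median log2 fold change of -0.14. Over all genes 22.1% were higher and 14.4% lower, so that these counts are near the shares of all genes. The glutathione peroxidase homologue *gpx-5* rose from 37.4, 44.9 and 37.0 ppm in WT to 85.5, 88.7 and 94.7 ppm in ATF-4OE, without overlap (log2 fold change 1.16, adjusted p = 0.00272 by limma). *gpx-3*, at 0.246 to 1.51 ppm in WT and 2.24 to 5.30 ppm in ATF-4OE, was also higher, but not without WT replicate 3, ATF-4OE replicate 1 or ATF-4OE replicate 3 (adjusted p of 0.112 to 0.225), nor on the centred and scaled values (0.334). It reached the 5 ppm of the filter only in ATF-4OE replicate 1. The count of 3 higher genes thus includes 1 that was tested only through the group where it was high. *gpx-7* (-1.37), *gpx-1* (-0.73) and *gpx-2* (-0.36) were lower, and the call of *gpx-2* was lost without WT replicate 1 (adjusted p = 0.101), WT replicate 3 (0.142) or ATF-4OE replicate 1 (0.146). The glutathione reductase *gsr-1* was higher by 0.35 on the log2 scale (adjusted p = 0.0261 by limma). *gcs-1*, the rate-limiting enzyme of glutathione synthesis and a SKN-1 target, was at 63.2, 63.6 and 63.6 ppm in WT and 57.6, 49.1 and 65.2 ppm in ATF-4OE, which overlapped (adjusted p = 0.368 by limma).

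Of the 8 ABC transporters of the family that exports glutathione conjugates, 6 were tested. In ATF-4OE *mrp-3* (-1.44), *mrp-4* (-0.63) and *mrp-5* (-0.53) were lower and *mrp-2* (0.71) and *mrp-1* (0.41, adjusted p = 0.0980 by limma) were higher than in WT, against the same shares of all genes. *mrp-1* did not pass with the replicate block (adjusted p = 0.125), without any WT or mutant replicate or without ATF-4OE replicate 1 or 3 (adjusted p up to 0.289). The call of *mrp-4* was lost without WT replicate 1 or ATF-4OE replicate 1 or 2, and that of *mrp-5* without WT replicate 3 (adjusted p = 0.103). On the centred and scaled values *mrp-3* (0.141), *mrp-4* (0.264) and *mrp-5* (0.121) did not pass by limma. Of 4 regulators of *gst-4* (*skn-1*, *wdr-23*, *brap-2* and *nhr-49*), 0 passed by limma, also at an unadjusted p under 0.05, with *skn-1* at 36.2 to 42.4 ppm in WT and 40.5 to 58.0 ppm in ATF-4OE (adjusted p = 0.198 by limma). The RNA level of *skn-1* does not measure the activity of its protein.

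A relative outside the symbols used here was higher in ATF-4OE, as was the omega-class member *gsto-3* (log2 fold change 0.90). *gsto-2*, under the filter, also lay above WT in every ATF-4OE library, while *gsto-1* did not pass. Of 11 further genes with a glutathione S-transferase-like fold, 8 were tested, with 3 higher, against 22.1% of all genes, 2 lower, against 14.4%, and a median log2 fold change of 0.26. Over so few genes these counts are not set apart from the shares of all genes. *C02D5.4*, an omega-class homologue 929 bp upstream of *gsto-2* on the same strand of chromosome III (8552165 to 8553842) with no gene between them, was at 95.9, 72.9 and 86 ppm in WT, 89.7, 80.1 and 78.6 ppm in *atf-4(tm4397)* and 360, 455 and 479 ppm in ATF-4OE. WT and mutant overlapped, and every ATF-4OE library stood far above them. The log2 fold change against WT was 2.33 ± 0.14 (SE, adjusted p = 4.58e-05 by limma), and in ATF-4OE its mean of 431 ppm exceeded that of every member of the family. The authors had already reported *C02D5.4* as higher in ATF-4OE from these same libraries. Its call here, which is among the 3 higher ones, is therefore not separate evidence. *cdr-4* (0.49) and *exc-4* (0.47) were higher and *cdr-6* (-0.50) and *exl-1* (-0.81) lower. The call of *cdr-4* was lost without WT replicate 1 or ATF-4OE replicate 3 (adjusted p up to 0.102), and that of *exc-4* with the replicate block and without WT replicate 2 or 3 or ATF-4OE replicate 1 or 3 (adjusted p up to 0.212).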

How the data were processed

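By the methods, the authors aligned single 50 bp reads with STAR 2.4.0j to WBcel235, counted reads per gene with featureCounts of Rsubread and made RPKM values. In the deposited centred and scaled table (14218 genes) the values are scores, each library's RPKM centred on its mean and divided by its SD. A deposited sheet of 39 most regulated genes, used for library names only, also holds scores. Another sheet holds the authors' enrichment p-values, which were not used. Each library's lowest score was set to 0 and its sum to 1000000 (ppm). Levels were modelled as log2(level + 1) with limma 3.58.1 in R 4.3.3, all 9 libraries together, with trend and no block; tests were two-sided with Benjamini-Hochberg adjustment over 11287 genes. Pairing was checked: the labels put the strains of a replicate in the same growth, although same-numbered libraries deviated together, beyond a correlation of 0.1, in 3 of 9 pairs. The sheet of most regulated genes exchanges mutant replicates 2 and 3, and by its numbers 5 of 9 pairs did (correlations of -0.48 to 0.76), so both numberings were fitted as a block. The fit with replicate number as a block is given where it changes a call. Members and lists were chosen with earlier results of these data known. Genes were named by rule: members that passed anywhere, the 10 most abundant, 16 of known class or role, and up to 4 genes with the smallest adjusted p per list. *gst-12*, *gst-19*, *gst-20*, *gst-22*, *gst-24*, *gst-31*, *gst-35*, *gst-41* and the overlapping genes fall outside it and were chosen after their values were seen. So were the list genes *gpx-2*, *gpx-3*, *gcs-1*, *mrp-1* and *exc-4*, and the cutoffs between bands of level. Member sequences were not analysed here. Alternatives changed the pseudocount, filter, scaling, libraries, weights, trend, block, scale and names. Scripts, tested on simulated data, used Python 3.11.15, pandas 2.3.3, numpy 2.4.6 and matplotlib 3.10.9. With 3 libraries against 3 the smallest exact permutation p is 0.1.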

Additional observations from a re-analysis of the deposited data

How the results depend on the processing

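In ATF-4OE against WT, 8 of 17 member calls held in each alternative fit other than the intestinal scaling and the names of the RPKM values, and 33 of 338 values lost the call, with 0 reversed. In ATF-4OE against *atf-4(tm4397)*, 6 of 13 calls held, 26 of 260 values lost the call and 1 reversed (*gst-11*, -0.00061 on the centred and scaled values). Leaving out 1 library gave 2 to 4 higher and 8 to 14 lower members in the first comparison, and 3 to 4 and 7 to 12 in the other. On the centred and scaled values, 0 members were higher in either comparison and 6 were lower against the mutant. These values are linear and centred library by library, so differences of low-level genes there include those between the centres. In the mutant against WT, 4638 of 11287 genes had an unadjusted p under 0.05 by limma on these values, against 1176 in the reported fit. A log2 fold limit of 1, on log2(level + 1) that shrinks folds at low levels, left 0 higher and 5 lower against WT, and 0 and 3 against the mutant. Under the library names of the RPKM values, 0 members were higher and 0 lower against WT. Against the mutant, 6 were higher with no filter and 5 with no trend. With the replicate block, the counts were 3 higher and 11 lower against WT and 3 and 9 against the mutant. Of the calls given above it changed those of *gst-1*, *gst-3*, *gst-29*, *gst-26*, *mrp-1* and *exc-4*, and with mutant replicates 2 and 3 exchanged those of *gst-38* (adjusted p = 0.107 by limma) and *exc-4* (0.103). Scaling to the intestinal markers, chosen after the data were seen, gave 10 higher and 6 lower against WT and 7 higher against the mutant, and turned *gst-1* (0.14), *gst-7* (0.06) and *gst-42* (0.19). Of the lists, library weights gave 5 lower glutathione genes and 1 higher SKN-1 regulator. No filter, 2 groups only, no trend and the block each left 1 higher transporter, and the centred and scaled values 0 lower. Leaving out 1 library gave 1 to 2 higher transporters, 0 to 1 higher SKN-1 regulators and 1 to 3 higher genes of the related fold. The causes were not tested. Depth limits members of few reads, such as *gst-41* (2 to 95 reads per library).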
